A study of Mus musculus with 13 samples.

Results

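Heat shock proteins and J-domain proteins are the molecular chaperones that fold, hold, refold and hand over other proteins. They were picked from the gene table by symbol, as the Hsp and Dnaja, Dnajb and Dnajc families plus the heat shock factors Hsf1 and Hsf2 and the co-chaperones Bag1, Bag2 and Bag3, leaving out Hspg2, Hspbap1 and pseudogenes. This gave 79 members among 27111 features with a gene name. The RNA came from Sertoli cells enriched from the testis of adult C57Bl/6J wild-type males (genotype label Bl6 wt) aged 3 to 5 months, 6 of them controls that had been left undisturbed and 7 exposed to MSUS, in which separation from the mother is joined with stress of the mother, both at times that cannot be foreseen. MSUS pups had been kept apart from the dam during 3 h of each day, starting on postnatal day 1 and ending on day 14, while the dam was made to swim in water at 18°C for 5 min or was restrained in a tube for 20 min. All males belonged to the first of the study's cohorts (batch 1), and the exposure had ended months before collection. Cells were sorted from dissociated testis as diploid, large and rich in MitoTracker signal, a gate that can also let germ cells and other somatic cells through, so each library is the RNA of a mixed pool. In such bulk RNA, fewer cells of a type and less RNA per cell cannot be told apart.

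HSP70 proteins bind unfolded stretches of other proteins in cycles of ATP hydrolysis, J-domain proteins deliver the clients and stimulate the hydrolysis, and BAG proteins and HSP110 release the nucleotide. HSP90 takes over partly folded clients, and small heat shock proteins hold unfolded ones without ATP. The cytosol, the endoplasmic reticulum (ER) and the mitochondrion each have their own set, the first induced through heat shock factors binding heat shock elements, the second through the unfolded protein response. Sertoli cells secrete and phagocytose heavily, and meiotic and postmeiotic germ cells beside them express chaperones of their own, such as HSPA2, the HSP70 form needed for meiosis in males.

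Several members carry the letters of these response elements just before their RefSeq start. The stretches are shown because such elements belong to the 2 best known routes of induction. RefSeq promoter windows (GRCm38.p6, 250 bases before to 50 after each start) were matched for 63 member genes with 80 windows. The ER stress response element was searched as CCAAT and CCACG with 9 bases of any kind between them, on both strands. It occurred in 0.119% of 32851 windows of all genes and in 3 windows of the members, those of Hspa5, Hsp90b1 and Dnajc3, all of which act in the ER. The heat shock element was searched as 3 units of GAA or its complement TTC in turn (GAA, TTC, GAA or TTC, GAA, TTC), each set off from the next by 2 bases of any kind. It occurred in 0.603% of all windows and in 6 windows of 4 member genes, Hspd1, Hspe1, Dnajb6 and Hsph1. Hspd1 and Hspe1, the partners of the mitochondrial chaperonin, are transcribed away from each other and share 1 stretch, in which matches on both strands overlap. In Hsph1 the match lies after the RefSeq start. Starts differ in GENCODE vM21. There the matches of Hspa5 and Dnajb6 lie after the first annotated base of the gene, and the stretch shared by Hspd1 and Hspe1 lies within Hspd1. A match is a description of letters and no proof of binding, and the absence of these letters from a window says nothing about the factor. Below, capitals mark the matched letters, and each stretch is written 5′ to 3′ on the strand of the gene.
Hspa5, chr2:34772020-34772049, plus strand: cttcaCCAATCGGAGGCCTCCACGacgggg
Hsp90b1, chr10:86705510-86705594, minus strand: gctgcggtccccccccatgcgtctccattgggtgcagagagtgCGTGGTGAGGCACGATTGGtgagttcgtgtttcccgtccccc
Dnajc3, chr14:118937782-118937931, plus strand: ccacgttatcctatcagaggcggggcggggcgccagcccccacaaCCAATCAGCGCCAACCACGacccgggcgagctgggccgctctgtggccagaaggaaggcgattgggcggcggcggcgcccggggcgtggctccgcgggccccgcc
Hspe1, chr1:55088053-55088082, plus strand: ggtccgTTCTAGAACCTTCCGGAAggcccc

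The stress-inducible HSP70 is made from a pair of copies, Hspa1a and Hspa1b, whose sequences matter here because reads cannot always be assigned to one of them. The 150 bases before the start differ at 1 base, written in capitals, and the whole windows of 300 bases differ at 4.
Hspa1a, chr17:34972157-34972306, minus strand: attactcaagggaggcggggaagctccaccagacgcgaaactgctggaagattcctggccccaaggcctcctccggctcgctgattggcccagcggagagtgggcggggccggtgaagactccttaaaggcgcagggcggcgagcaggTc
Hspa1b, chr17:34959239-34959388, minus strand: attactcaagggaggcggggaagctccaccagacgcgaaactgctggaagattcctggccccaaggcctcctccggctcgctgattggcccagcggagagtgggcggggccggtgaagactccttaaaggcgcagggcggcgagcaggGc

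Total estimated counts per library were 13087108 to 18649819 in controls and 12701664 to 15693836 in MSUS, of which 9937178 to 14383367 and 9776853 to 11876822 were on named genes. The 5 Sertoli cell markers Amhr2, Clu, Ctsl, Rhox5 and Sox9 summed to 11900 to 14790 CPM (counts scaled to a common library size) in controls and 12120 to 14430 CPM in MSUS. Germ cell markers were present as well. For spermatid transcripts such as Prm2, the study proposes a likely origin in spermatid remnants engulfed by Sertoli cells, which was not tested here. The 4 elongated spermatid markers, Prm1, Prm2, Tnp1 and Tnp2, summed to 847.3 to 1378 CPM in controls and 729.7 to 1775 CPM in MSUS, with none listed at 0. Macrophage markers summed to at most 1.996 CPM, and 1 of these 5 genes was at 0 in every library. Markers of other somatic cells were higher. Peritubular myoid markers summed to 8.04 to 61.86 CPM in controls and 11.41 to 90.43 CPM in MSUS, highest in MSUS 5. Leydig markers summed to 30.01 to 66.87 CPM in controls and 40.01 to 83.24 CPM in MSUS, endothelial ones to 53.15 to 68.9 and 52.54 to 73.93 CPM. MSUS 11, the library of MSUS animal 11, had the highest sums of the spermatocyte, round spermatid and elongated spermatid lists, and results that rest on it are given without it too.

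The levels of the members were first summed in each library. After TMM scaling of the library sizes, the 79 members together summed to 1.39% ± 0.0464 (SD, n = 6) of the scaled library in controls. In MSUS the sum was 1.36% ± 0.0218 (SD, n = 7). These are scaled sums and not plain shares of the counts on named genes. ER forms contributed 31.1% of the members' CPM in controls, cytosolic HSP90 21.5%, and cytosolic HSP70 and HSP110 19.2%. J-domain proteins of cytosol and nucleus contributed 11.8%, mitochondrial forms 5.55%, germ-cell forms 5.34%, small heat shock proteins 2.12%, and heat shock factors with BAG proteins 2.11%.

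To compare levels between genes, CPM was divided by the length of the longest annotated transcript in kilobases before taking log2. In controls Hsp90ab1, the constitutive cytosolic HSP90, stood at 9.69 ± 0.0768 (SD, n = 6) on this scale and Hsp90b1, the HSP90 of the ER also known as GRP94, at 9.57 ± 0.081 (SD, n = 6). Hspa8, the constitutive cytosolic HSP70, followed at 9.38, and each of these 3 overlapped its neighbour in range. Hspa5, the ER HSP70 known as BiP, at 8.30 per kilobase, lay clearly below Hspa8, since their control ranges did not overlap. Hspb1, a small heat shock protein of the actin cytoskeleton, at 8.27 per kilobase, and Hsp90aa1, the inducible cytosolic HSP90, at 8.11 per kilobase, came next and overlapped in their ranges. Below them stood Hspa2 at 7.14, the splicing-associated J-domain protein Dnajc8, the mitochondrial HSP70 Hspa9 at 6.80 and Bag1 at 6.72, all per kilobase.

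The inducible HSP70 copies were lower on the same scale. Hspa1b reached 3.50 and Hspa1a 2.49 per kilobase, and the transcription factors Hsf1 and Hsf2 2.96 and 2.54 per kilobase. Neighbours in the order overlapped in 70 of 76 pairs, so most ranks cannot be told apart. The 6 steps where control ranges separated were Hspa8 over Hspa5, Hsp90aa1 over Hspa2, Dnajc8 over Hspa9, Bag1 over Hspa4, Hspd1 over Dnajb6, and Hspb6 over Hspa12a. With the median transcript length in place of the longest, 8 of the first 10 stayed among the first 10. Dnajc7 and Dnajb6 took the places of Hspa2 and Bag1. With that length the order was reversed for Dnajc8 and Hspa9, Bag1 and Hspa4, Hspd1 and Dnajb6, and Hspb6 and Hspa12a. These separations therefore depend on the length chosen. With that length Hspa8 also ranked above Hsp90b1. The longest annotated transcript has 4 exons for Hspa8 and 1 each for Hsf1 and Hsf2. Whether these are the main transcripts in the cells was not tested, and the levels per kilobase of these genes depend on it.

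**Figure D1:**
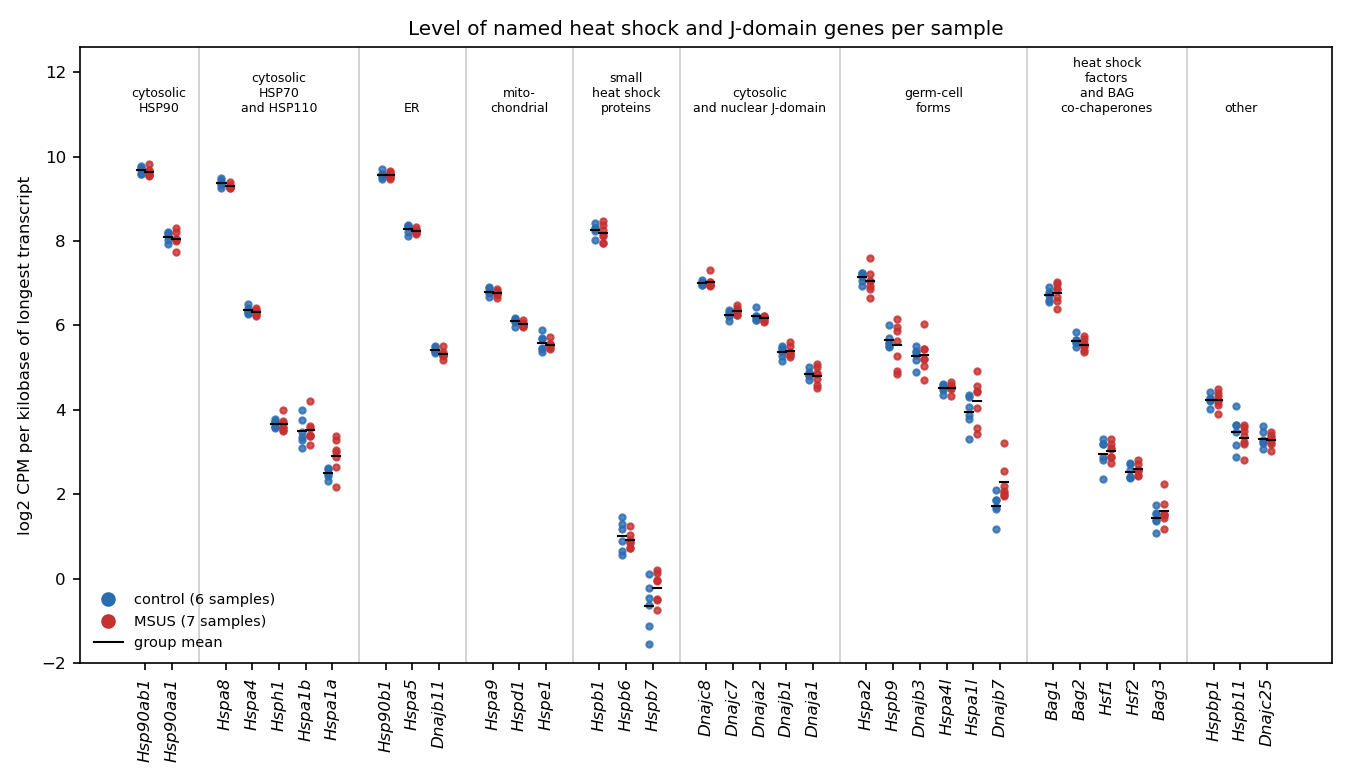
Levels of the named members in each library, as log2 CPM per kilobase of the longest annotated transcript, ordered by class and by the control mean, with each point 1 library and lines for the group means. Hsp90ab1, Hsp90b1 and Hspa8 stand highest, with control means from 9.38 to 9.69, and Hspb7 lowest at -0.64.

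The question put to these data was whether stress in early life had left the chaperones of adult Sertoli cells at other levels. Of the 79 members, 73 had enough counts to enter the fit across 14421 genes (limma voom on TMM-normalized counts). At an unadjusted p under 0.05, the threshold of the study's methods, 2 members were higher in MSUS, Hspa1a and Dnajb7, and 0 were lower. That is 2.74% of the tested members, beside 5.42% of all genes tested, of which 3.02% were higher and 2.4% lower in MSUS. After Benjamini-Hochberg adjustment over all genes tested, 0 members passed and 0 genes in all (0% of those tested) passed in limma voom, edgeR or DESeq2, and the smallest adjusted p of a member was 0.878. In 0 members did all MSUS samples lie above or below all controls, which was so in 0.0763% and 0.0555% of the genes tested.

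Fold changes of the members were small. Of the 73, 34 had a higher and 39 a lower fitted mean in MSUS, with a median log2 fold change of -0.0051 beside -0.0018 over all genes tested. The split moved with the scaling, to 26 higher and 47 lower by library size only and to 44 higher and 29 lower with the level of the nuclear RNA Malat1 as covariate. The 95% interval of the log2 fold change lay within -0.25 and 0.25 for 39 members and within -0.5 and 0.5 for 60, so changes beyond these sizes fell outside the intervals of those members. All 12 ER members and 5 of 8 mitochondrial ones were in the narrower class, as against 1 of 10 germ-cell forms and 0 of the 3 small heat shock proteins tested.

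**Figure D2:**
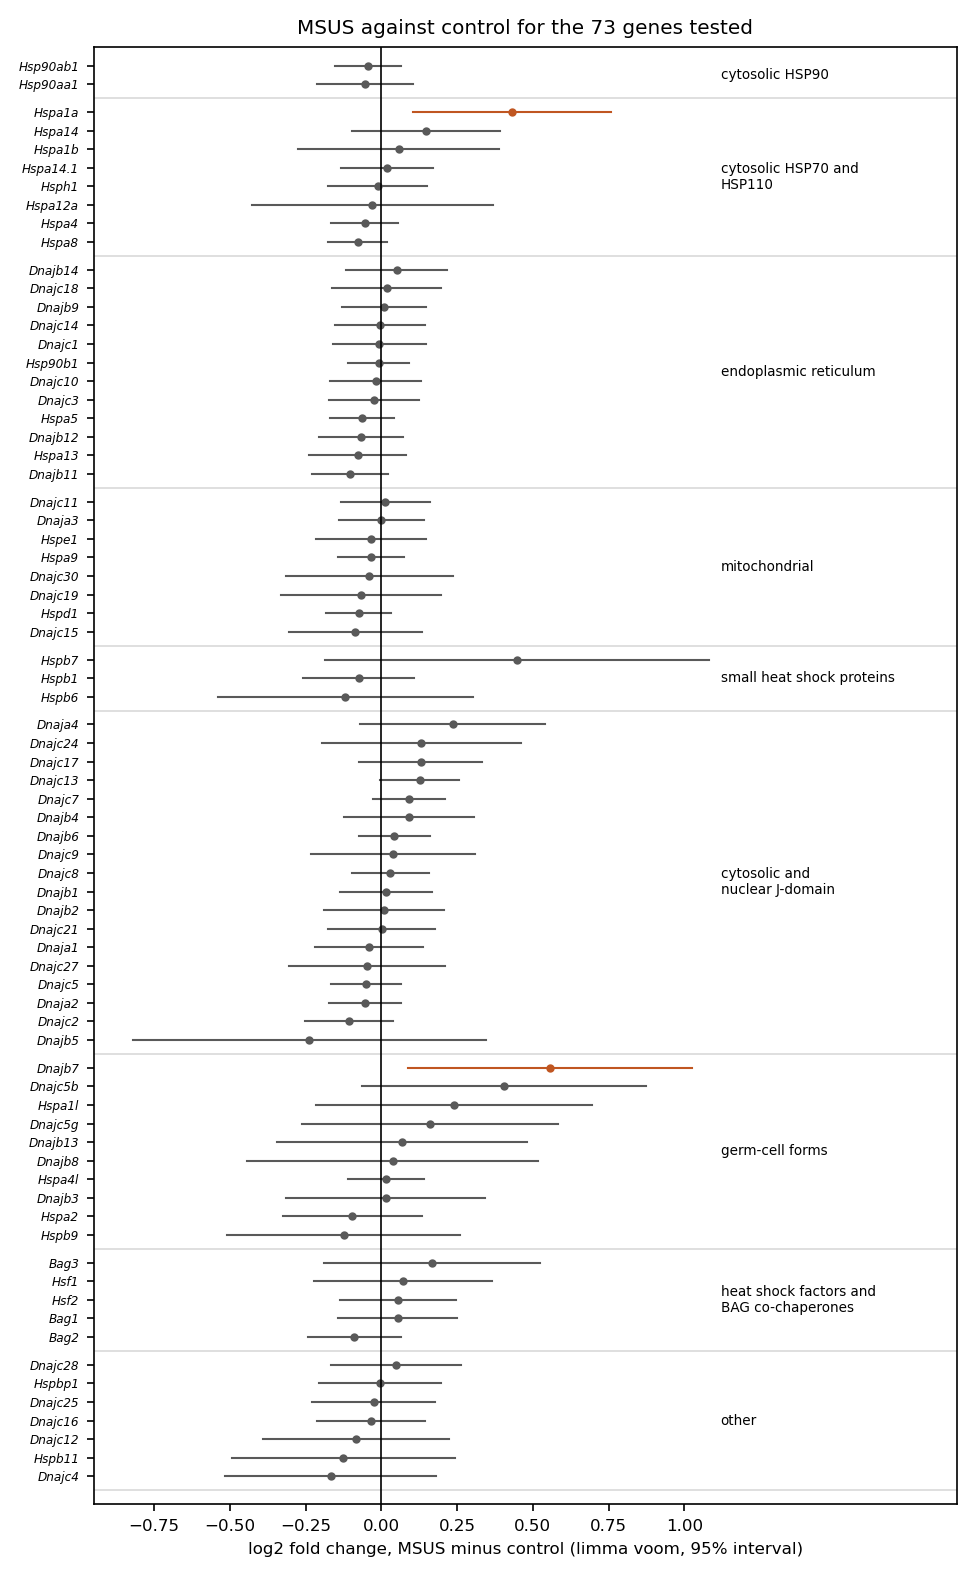
Log2 fold change (MSUS over control, limma voom) of each tested member by class, with its 95% interval. Intervals exclude 0 for Hspa1a at 0.43 and Dnajb7 at 0.56, while the 12 ER members lie between -0.10 and 0.05.

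Heat shock factors, which switch on the cytosolic heat shock genes, and BAG proteins came first in the order of the pathway. Hsf1 ranged from 4.02 to 4.96 log2 CPM with a median of 4.69 in controls and from 4.38 to 4.96 with a median of 4.72 in MSUS. Hsf2 ranged from 4.57 to 4.91, median 4.67, in controls and from 4.62 to 4.99, median 4.75, in MSUS. Both groups overlapped almost entirely for both factors, with log2 fold changes of 0.071 (SE 0.14) for Hsf1 and 0.055 (SE 0.091) for Hsf2. Bag1, a nucleotide exchange factor that links HSP70 to the proteasome, had a log2 fold change of 0.053 (SE 0.0935), and Bag2, which hinders ubiquitination by the HSP70-bound ligase CHIP, one of -0.089 (SE 0.0724). Bag3, a partner of HSPB8 in selective autophagy and itself a heat shock gene, ranged from 2.43 to 3.11 log2 CPM in controls and from 2.54 to 3.60 in MSUS, where MSUS 11 was highest. Its log2 fold change of 0.17 (SE 0.17) missed the threshold (limma voom, adjusted p = 0.915), and without MSUS 11 it was 0.058.

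Neither gene of the cytosolic HSP90 pair passed the threshold. Hsp90ab1 ranged from 10.92 to 11.11 log2 CPM, median 11.04, in controls and from 10.88 to 11.16, median 10.94, in MSUS. Its log2 fold change was -0.045 (SE 0.0518, 95% interval -0.154 to 0.0637), and 6 of 7 MSUS samples lay below the control mean. Hsp90aa1 ranged from 9.64 to 9.92 log2 CPM, median 9.86, in controls and from 9.47 to 10.02, median 9.76, in MSUS, wider than the controls at both ends, with a log2 fold change of -0.054 (SE 0.0755).

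Among cytosolic HSP70s, Hspa8 ranged from 10.92 to 11.15 log2 CPM, median 11.04, in controls and from 10.91 to 11.06, median 10.95, in MSUS. Its log2 fold change was -0.079 (SE 0.0463, 95% interval -0.176 to 0.0185), with a single MSUS sample above the control mean, and it missed the threshold (limma voom, adjusted p = 0.878). Hspa4 and Hsph1, HSP110 proteins that exchange the nucleotide of HSP70, had log2 fold changes of -0.056 (SE 0.0522) and -0.013 (SE 0.0782). Hspa14, a ribosome-associated HSP70, occupied 2 entries of the table under the same name, with log2 fold changes of 0.15 and 0.018, and their summed counts gave 0.047 (SE 0.0643).

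Hspa1a, the inducible HSP70 gene at chr17:34969190-34972156 (GRCm38, minus strand, a single exon), was higher in MSUS. It ranged from 3.89 to 4.19 log2 CPM, median 4.06, in controls and from 3.75 to 4.95, median 4.57, in MSUS. In 6 of 7 MSUS samples it was above every control, and in MSUS 23 it was below every control. The log2 fold change was 0.43 (SE 0.156, 95% interval 0.103 to 0.759) and passed the unadjusted threshold, but failed the correction over all genes tested (limma voom, adjusted p = 0.878). The unadjusted call held in all 13 fits that left out 1 library each, and rested on 144 to 246 counts per control library and 123 to 338 per MSUS library. The 11 immediate early genes, another set that responds to handling and dissociation, summed to 1110 to 1594 CPM in controls and 1042 to 1878 CPM in MSUS, with 1 of 11, the AP-1 subunit Fosb, past the threshold (log2 fold change 0.40, SE 0.173, limma voom adjusted p = 0.878). Fosb did not pass in DESeq2 or in 5 of the 13 fits that left out 1 library each. MSUS 5 was the highest library both for this sum and for Hspa1a. MSUS 1 was the lowest library for the sum of immediate early genes, and the highest for Hspa1b and for the counts of both copies added. The part of dissociation in the difference was not tested.

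Its copy Hspa1b, at chr17:34956436-34959238 on the same strand with 9951 bases between the genes, did not pass the test, and the difference between the copies was itself not tested. Hspa1b ranged from 4.58 to 5.47 log2 CPM, median 4.91, in controls and from 4.65 to 5.70, median 4.88, in MSUS, where only MSUS 1 lay above every control and 0 samples lay below. Its log2 fold change was 0.057 (SE 0.157, 95% interval -0.274 to 0.387). Of all stretches of 100 bases in the Hspa1a transcript, 48.6% also occur in another transcript, nearly all of them in Hspa1b, and of those in Hspa1b 49.9% occur elsewhere. Reads of such stretches are divided between the copies by estimation, so neither copy's value stands by itself. Hspa1a took 24.9% to 43.2% of the pair's counts in controls, median 35.01%, and 26.2% to 49.3% in MSUS, median 42.8%. For the summed counts of both copies, a choice made after seeing the data, the log2 fold change was 0.21 (SE 0.113, 95% interval -0.0304 to 0.443), which no longer passed (limma voom, adjusted p = 0.878). With the Malat1 level as a covariate, the log2 fold change of Hspa1a was 0.29 and did not pass either. Calls were fewer over all genes with this covariate, 401 of 14421 at the unadjusted threshold, beside 781 without it.

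**Figure D3:**
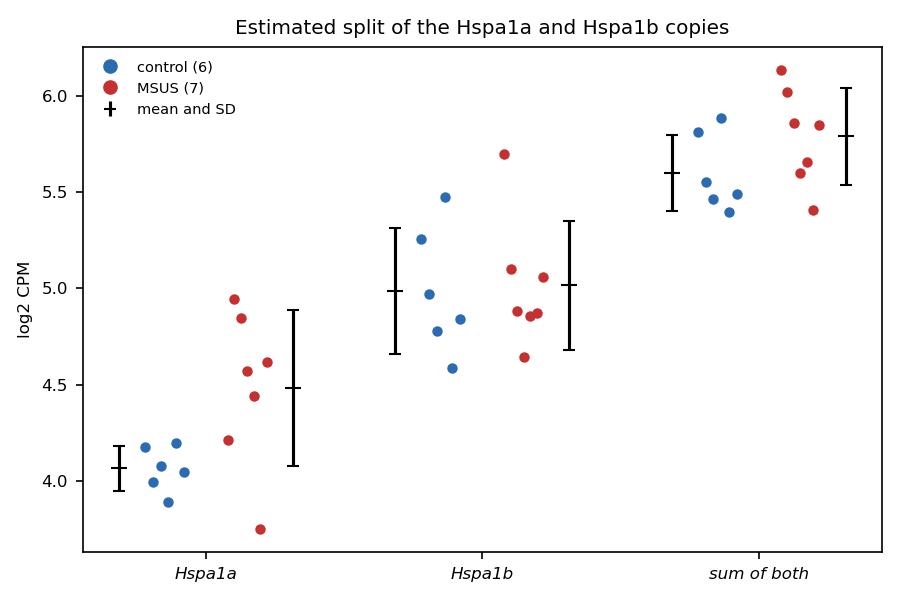
Log2 CPM of Hspa1a, of Hspa1b and of their summed counts in each library, controls and MSUS side by side, with each point 1 library and bars for the group mean and SD. For Hspa1a, 6 of 7 MSUS libraries lie above all 6 controls and 1 below, while for Hspa1b 6 of 7 MSUS libraries lie within the control range.

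J-domain proteins of the cytosol and nucleus, which choose the clients of HSP70, showed 0 calls among 18 tested members, with 12 fitted means higher and 6 lower in MSUS and a median log2 fold change of 0.022. Scaled by library size only, without TMM, the split was 9 and 9. Dnajb1, the main partner of HSP70 in the heat shock response, ranged from 6.75 to 7.10 log2 CPM, median 6.99, in controls and from 6.83 to 7.20, median 6.92, in MSUS, and differed by 0.015 (SE 0.0726) on the log2 scale. Dnaja1, a farnesylated co-chaperone, ranged from 7.21 to 7.50 log2 CPM in controls and from 7.01 to 7.57 in MSUS, wider on both sides, with a log2 fold change of -0.042 (SE 0.085). The log2 fold changes of the 3 members with the highest level per kilobase were 0.029 (SE 0.0608) for Dnajc8, 0.091 (SE 0.0565) for Dnajc7, which bridges HSP70 and HSP90, and -0.055 (SE 0.0562) for Dnaja2.

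Dnajc13, a J-domain protein of endosomes, came nearest to the threshold in this class and was singled out after its values were seen. It ranged from 6.57 to 6.75 log2 CPM, median 6.64, in controls and from 6.65 to 6.97, median 6.76, in MSUS. All 7 MSUS samples lay above the control mean and 4 above every control, with a log2 fold change of 0.13 (SE 0.0617, limma voom adjusted p = 0.878). Dnajc13 missed the unadjusted threshold in this fit, in edgeR, with sample weights, by library size only and without the filter on low counts. It also missed it with unnamed features kept and with the Malat1 level as covariate. It passed in DESeq2, with DESeq2 size factors, and with at least 1 CPM in at least 6 samples required. It passed as well with the score of elongated spermatid markers as covariate, and in 3 fits that left out 1 library each.

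The ER forms had small fold changes throughout. Their 12 log2 fold changes lay between -0.10 and 0.050, with 9 negative, 3 positive and a median of -0.014, and 0 passed the threshold. The split turned to 4 negative and 8 positive, with a median of 0.0095, when the score of elongated spermatid markers was added to the model, and was 7 and 5 without MSUS 11. Hsp90b1, whose clients include integrins and Toll-like receptors, ranged from 11.16 to 11.40 log2 CPM, median 11.26, in controls and from 11.15 to 11.36, median 11.24, in MSUS. Hspa5, the sensor-binding chaperone of the unfolded protein response, ranged from 10.001 to 10.263 log2 CPM, median 10.22, in controls and from 10.05 to 10.20, median 10.09, in MSUS, entirely within the control range. The log2 fold change was -0.0096 (SE 0.0485) for Hsp90b1 and -0.065 (SE 0.0501) for Hspa5. Dnajc3, which with these genes carries the ER stress response element shown above and restrains the kinase PERK, differed by -0.026 (SE 0.0707).

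Dnajb11, the BiP partner of the ER lumen, was the ER member nearest to the threshold. It ranged from 6.67 to 6.84 log2 CPM, median 6.73, in controls and from 6.503 to 6.847, median 6.62, in MSUS, where 5 of 7 samples lay below every control and MSUS 23 lay above. The log2 fold change was -0.10 (SE 0.0594, limma voom adjusted p = 0.878). Without MSUS 23 it was -0.135 and passed the unadjusted threshold.

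In mitochondria, where Hspa9 pulls imported proteins through the inner membrane and the chaperonin of Hspd1 and Hspe1 folds them, 0 of 8 members passed. Fitted means were lower in MSUS for 7 of 8, with a median log2 fold change of -0.038 and a range of -0.086 to 0.013. With the level of Malat1 as covariate 3 of 8 were lower. Hspa9 ranged from 8.28 to 8.51 log2 CPM, median 8.40, in controls and from 8.26 to 8.46, median 8.39, in MSUS. Hspd1, which encodes HSP60, ranged from 7.25 to 7.44 log2 CPM, median 7.39, in controls and from 7.24 to 7.40, median 7.28, in MSUS. Both overlapped across most of their ranges, with log2 fold changes of -0.035 (SE 0.0517) and -0.074 (SE 0.051), and 6 of 7 MSUS samples lay below the control mean of Hspd1. Hspe1, which encodes HSP10, differed by -0.034 (SE 0.0861).

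Of the 6 small heat shock proteins outside the germ-cell forms, Hspb2, Hspb3 and Hspb8 had too few counts to enter the fit. Hspb1, also called HSP25 or HSP27, dominated the class. It ranged from 7.93 to 8.33 log2 CPM, median 8.20, in controls and from 7.84 to 8.38, median 8.05, in MSUS, with a log2 fold change of -0.075 (SE 0.0869). Part of its sequence, 42.7% of its stretches of 100 bases, also occurs in a pseudogene. Hspb6 and Hspb7, small heat shock proteins of muscle, were near the lower limit, with log2 fold changes of -0.12 (SE 0.2) and 0.45 (SE 0.302). Hspb7 had 8 to 36 counts in controls and 17 to 33 in MSUS, and its large fold change lay within its error (limma voom, adjusted p = 0.878).

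Germ-cell forms are chaperones with expression known from spermatocytes and spermatids, and 10 were tested. Their values spread widely between the MSUS libraries. The median SD of log2 CPM over these 10 was 0.259 in controls and 0.46 in MSUS, beside 0.125 and 0.168 over all tested members and 0.198 and 0.239 over all genes tested. Without MSUS 11 the median SD of the 10 in MSUS was 0.301. In all 10 the SD was higher in MSUS, as it was for 64.5% of all genes tested, and without MSUS 11 this held for 7 of 10, beside 61% of all genes. All 10 had their highest value of the 13 libraries in MSUS 11, which was so for 20 of 73 tested members (27.4%) and for 14.7% of all genes tested.

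Sums of 3 of the 4 germ cell marker lists were also highest in MSUS 11, though not every single marker was. Meiob stood at 2.29 log2 CPM there and 2.96 in MSUS 13, and Tnp1 at 8.52 and 8.58. The 5 round spermatid markers summed to 162.6 CPM there and to at most 110.6 CPM in any other library, with control libraries at 75.15 to 96.25 CPM. The 5 spermatocyte markers summed to 243.5 CPM there and to at most 207.4 CPM elsewhere. The 4 elongated spermatid markers summed to 1775 CPM, against at most 1702 CPM elsewhere, and the 5 spermatogonia markers to 122.2 CPM, within the range of the other libraries. That last sum was nearly all Dmrt1, at 6.90 log2 CPM in MSUS 11. Zbtb16, Gfra1, Kit and Stra8 stood there at -0.28, -1.48, 0.25 and 0.46 log2 CPM, so the sum says little about spermatogonia. No gene of these 4 lists was at 0 in every library, and the part of germ cell content in the values of the germ-cell forms was not tested.

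Dnajb7, a testis J-domain gene with a single exon at chr15:81406926-81408299 (GRCm38, minus strand), was the other member past the threshold. It ranged from 1.64 to 2.55 log2 CPM, median 2.24, in controls and from 2.41 to 3.68, median 2.54, in MSUS. All 7 MSUS samples lay above the control mean and 3 above every control, with MSUS 11 highest at 3.68 and control 14 lowest at 1.64. The log2 fold change was 0.56 (SE 0.223, 95% interval 0.0862 to 1.02) and passed the unadjusted threshold, but failed the correction as well (limma voom, adjusted p = 0.878). It rested on 29 to 77 counts per control library and 49 to 137 per MSUS library. Without MSUS 11 the log2 fold change was 0.40 and still passed the unadjusted threshold, and without control 14 it was 0.46 and no longer passed.

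Hspa2 had the highest level per kilobase of the germ-cell forms and a negative fold change. It ranged from 8.28 to 8.58 log2 CPM, median 8.52, in controls and from 7.98 to 8.93, median 8.38, in MSUS, where 3 of 7 samples lay below every control and MSUS 11 lay above. The log2 fold change was -0.096 (SE 0.109). Without MSUS 11 it was -0.19 (SE 0.0827) and passed the unadjusted threshold (limma voom, adjusted p = 0.666).

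Hspa1l, an HSP70 of spermatids that lies next to Hspa1a, ranged from 4.61 to 5.66 log2 CPM, median 5.28, in controls and from 4.73 to 6.23, median 5.74, in MSUS. In 4 of 7 MSUS samples it was above every control. The log2 fold change was 0.24 (SE 0.217), and 0.12 without MSUS 11. Hspa4l, an HSP110 form needed for normal spermatogenesis, varied little between libraries, at 7.59 to 7.85 log2 CPM in controls and 7.57 to 7.90 in MSUS, with a log2 fold change of 0.015 (SE 0.06). Hspb9 and Dnajb3, a testis small heat shock protein and a spermatid J-domain protein, had log2 fold changes of -0.13 (SE 0.183) and 0.014 (SE 0.156), which were -0.23 and -0.11 without MSUS 11. Dnajc5b, a relative of the cysteine string protein that was named after its values were seen, ranged from 3.02 to 3.27 log2 CPM in controls and from 2.52 to 4.30 in MSUS, with 5 MSUS samples above every control and 1 below, and missed the threshold (log2 fold change 0.41, SE 0.223, limma voom adjusted p = 0.878). Without MSUS 11 the log2 fold change of Dnajc5b was 0.28. Over the class 8 fitted means were higher and 2 lower in MSUS, with a median log2 fold change of 0.052, but without MSUS 11 there were 4 higher and 6 lower and the median was -0.025.

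**Figure D4:**
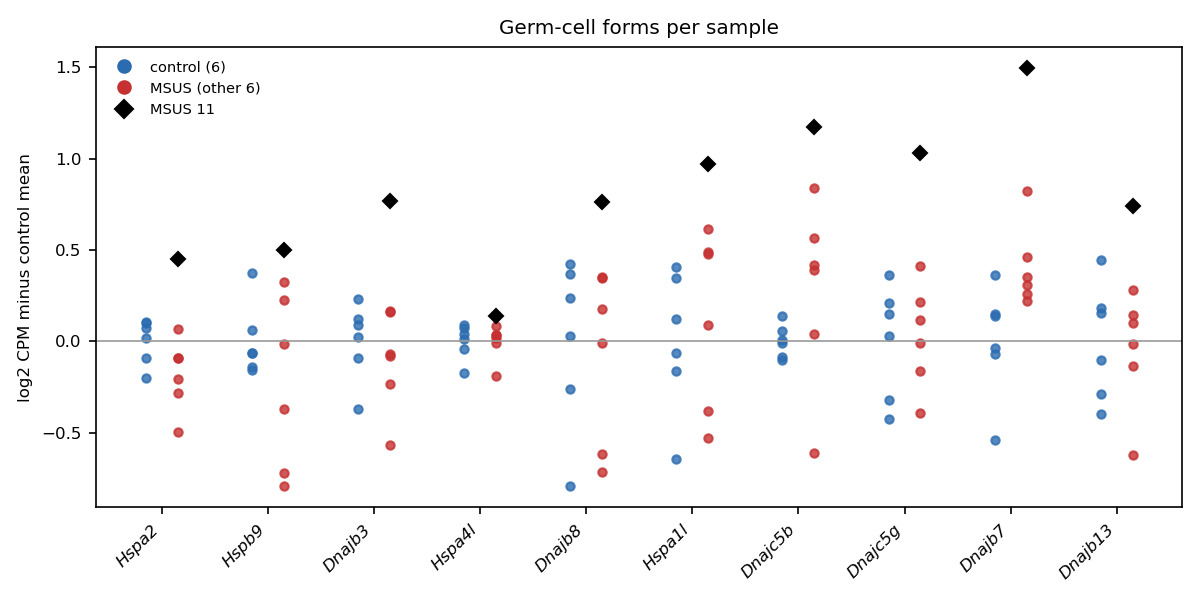
Log2 CPM of the 10 germ-cell forms in each library minus the gene's control mean, with each point 1 library and MSUS 11 drawn as a black diamond. MSUS 11 is the highest library for all 10 genes, ahead of the next library by 0.050 log2 units for Hspa4l and by 0.67 for Dnajb7.

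The 8 members left without a compartment here also had small fold changes. Log2 fold changes of the 7 tested ranged from -0.17 to 0.048, with 6 negative, and were -0.0051 (SE 0.0955) for the nucleotide exchange factor Hspbp1, -0.13 (SE 0.175) for Hspb11, a protein of intraflagellar transport, and -0.025 (SE 0.0964) for Dnajc25. The 6 members outside the fit, Hspb2, Hspb3, Hspb8, Dnajc22, Hspa12b and Dnajc6, had at most 11 counts in any library, and no comparison was made for them.

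Partners of these chaperones were then counted in lists of their own. Of 15 HSP90 and HSP70 co-chaperones 0 passed the unadjusted threshold, with a median log2 fold change of -0.021, and the smallest p belonged to Bag6 (log2 fold change 0.070, SE 0.0501), which guides tail-anchored and misfolded proteins. Of 10 genes of mitochondrial folding and proteolysis 0 passed, with a median of -0.034, and the smallest p belonged to the matrix protease Lonp1 (0.11, SE 0.0648). The 19 tested genes of ER folding and the unfolded protein response had a median of -0.0045. Of all genes tested 5.42% passed in either direction, and of the 19 here 1 passed and was lower. This was Sil1, the nucleotide exchange factor of BiP, at 5.89 to 6.28 log2 CPM in controls and 5.74 to 6.15 in MSUS, where a single sample exceeded the control mean (log2 fold change -0.20, SE 0.0919, limma voom adjusted p = 0.878).

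The chaperonin and prefoldin genes, which fold actin and tubulin in the cytosol, mostly had lower fitted means in MSUS under TMM. Of 15 tested, 14 were lower, with a median log2 fold change of -0.080, beside 7280 lower of all 14421 genes tested. The 15 genes were measured in the same 13 libraries, so their signs are not separate observations. With the level of Malat1 as covariate, 5 of 15 were lower and the median was 0.018. Of the 15 only Pfdn6, a prefoldin subunit, passed the unadjusted threshold, beside 5.42% of all genes tested. It ranged from 4.78 to 5.06 log2 CPM, median 5.01, in controls and from 4.73 to 4.88, median 4.80, in MSUS, with all 7 MSUS samples below the control mean (log2 fold change -0.17, SE 0.0737, limma voom adjusted p = 0.878). It did not pass in 8 of the 13 fits that left out 1 library each, nor did Sil1 in 8 of 13. Neither gene passed with the Malat1 level or the score of elongated spermatid markers as covariate. Sil1 also missed the threshold in edgeR, in DESeq2, with DESeq2 size factors, and with at least 1 CPM in at least 6 samples required. With the Malat1 level as covariate the log2 fold change of Sil1 was -0.026.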

How the data were processed

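RNA of enriched Sertoli cells was sequenced from 6 control and 7 MSUS males. Per the study's methods, the authors prepared stranded libraries (12 PCR cycles, single-end reads of 100 bases), trimmed reads with Trim Galore 0.6.5 and assigned them with Salmon 1.1.0 to GENCODE vM23 transcripts. The deposited values are estimated counts per gene, without normalization; the strand setting and the summing to genes are not given in the sources used here. Here they were rounded, and 27170 features without a gene name were left out.

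Genes passing filterByExpr were fitted with limma 3.58.1 voom after TMM (edgeR 4.0.16, R 4.3.3), two-sided, with Benjamini-Hochberg adjustment over all genes tested, as the study's methods use TMM, voom and unadjusted p under 0.05. DESeq2 1.42.0 and edgeR's quasi-likelihood test were alternatives. The code was tested on simulated counts. Levels were taken as log2 CPM, adding a prior count of 2. Replicates are separate animals, litter and cage were not analysed here, and counting error was not separated from the spread between animals.

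Members and lists were chosen with earlier results of these data known. Named were all members past the threshold, the 3 of each class with the highest level per kilobase in controls, fixed representatives, and of each partner list the genes past the threshold or else the 1 with the smallest p. Coordinates, transcript lengths and shared stretches of 100 bases come from GENCODE vM21 (GRCm38), and promoter windows from RefSeq. Of the 79 entries, 11 share over 10% of such stretches with another gene, Hspa8, Hsp90aa1, Hspd1, Dnajb6 and Dnaja1 among them.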

Additional observations from a re-analysis of the deposited data

Results flagged for a closer look

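Groups of values of the 35 named members were searched for a library standing apart by Dixon's criterion, in 70 groups in all, and 3 were found, where chance gives about 1 in 20. Dnajc8 stood at 8.195 log2 CPM in MSUS 1, above the next MSUS library at 7.906 and the lowest at 7.811. Dnaja2 stood at 7.985 log2 CPM in control 9, with the next control at 7.772 and the lowest at 7.675. Hspe1 stood at 5.674 log2 CPM in MSUS 13, with the next MSUS library at 5.512 and the lowest at 5.399. None of these 3 genes passed the test between the groups.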

How the results depend on the processing

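No paired analysis was possible because the replicate numbers are animal numbers and none occurs in both groups. The count of members higher in MSUS was 4 in DESeq2, which added Dnajc5b and Dnajc13. The count lower in MSUS was 1 with sample weights (Hspa8), with library size alone (Dnajb11) and with no filter on low counts (Hspa8). The median log2 fold change of the members was 0.02805 with the Malat1 level as covariate. Leaving out each library in turn gave 1 to 3 members higher, 1 without control 14, and 0 to 2 lower, 2 without control 10 (Hspa8 and Hspa5), 2 without MSUS 11 (Dnajc2 and Hspa2) and 1 without MSUS 23 (Dnajb11). The sign of the log2 fold change differed from the reported one in the following fits. Hspbp1 was 0.006294 in edgeR and 0.01092 in DESeq2. With library size alone Dnajb1 was -0.00227, Dnajb3 -0.007103 and Hspa4l -0.0009402. With the score of elongated spermatid markers in the model Hsp90b1 was 0.01608, Bag1 -0.03082, Dnajb1 -0.02146, Dnajb3 -0.09318 and Hspa4l -0.001748. With the Malat1 level as covariate Hsp90ab1 was 0.01228, Hsp90b1 0.01072, Hspa9 0.005897, Dnaja2 0.002404, Hspb9 0.1977, Hspe1 0.03029, Hspa4l -0.03183, Hspbp1 0.1373 and Fosb -0.0152. Over the fits that left out 1 library, the range was -0.08204 to 0.00723 for Dnaja1, -0.02835 to 0.0412 for Dnajb1, -0.11 to 0.1235 for Dnajb3, -0.08219 to 0.03891 for Dnajc25, -0.01946 to 0.04725 for Dnajc8, -0.05379 to 0.1332 for Hsf1, -0.03001 to 0.01951 for Hsp90b1, -0.06082 to 0.142 for Hspa1b, -0.01843 to 0.04823 for Hspa4l, -0.04286 to 0.05071 for Hspbp1, -0.08323 to 0.02043 for Hspe1 and -0.07017 to 0.01181 for Hsph1. The cause of these shifts was not tested. Of the tested members Hspb7, with 8 to 36 counts per control library, had the largest SE, 0.302.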
